A study of Mus musculus with 2 samples.

Results

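Immediate early genes are transcribed within minutes of a stimulus from factors that the cell already holds, and many of their RNAs are short-lived. AP-1 is a dimer of a Fos protein with a Jun protein, and it binds DNA through a basic leucine zipper. In beta cells of the pancreatic islet, glucose, membrane depolarisation, calcium and cAMP are known inducers of these genes, and so are tissue dissociation and heat. The 10 genes described here are 4 AP-1 subunits (Fos, Fosb, Jun and Junb), the zinc finger factors Egr1 and Egr4, the orphan nuclear receptor Nr4a1, the cytoskeleton-associated protein Arc, the small nuclear protein Ier2 and the phosphatase Dusp1, which inactivates MAP kinases. They are 10 of the 27998 genes in the deposited list, each with 1 row, and they were chosen by name with earlier results of these data in view, so their levels and correlations are given as a description, with no test.

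Islets came from males aged 8 weeks after 12 hours of fasting, and there is 1 droplet library of wild type mice (WT) and 1 of transgenic mice (miR-203 TG), whose labels name beta cells as the site of the transgene. How many mice went into a library is not stated in the labels. Only WT barcodes enter the results, because the copy of the TG matrix used here holds 547 of 23580133 entries. Of the TG entries, which come to 782 UMIs (unique molecular identifiers, which mark single captured transcripts), 0 fell on the 10 genes, which allows up to 4717 CPM (counts per 1000000 UMIs) against 2877 CPM in WT droplets of at most 200 UMIs.

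WT barcodes of at least about 5600 UMIs and 500 genes numbered 4547, of which the smallest held 5641 UMIs. They were grouped by the share of hormone UMIs, as beta where Ins1 and Ins2 together reached 30% (3261 barcodes), alpha where Gcg reached 8% (471), delta where Sst reached 3% (149), PP where Ppy reached 8% (117), and otherwise none (549). A barcode that met several rules, as 63 did, went to the first in that order. Of 7 further beta markers, 6 were highest in beta barcodes, as were 6 of 7 alpha markers in alpha barcodes, 4 of 6 delta markers in delta barcodes and 1 of 3 PP markers (Pyy) in PP barcodes. The none class held macrophage and endothelial RNA (5 markers each, 5491 and 746 CPM in sum, against 104 and 15.9 CPM in beta barcodes) and 15.2% insulin UMIs, so it is a mixture. The extraction text in the labels describes gut goblet cells, yet goblet cell markers were rare in all classes. The 5 markers came in sum to 0.816 CPM in beta barcodes, the lowest class, and to 9.84 CPM in PP barcodes, the highest. Most of the PP sum was Tff3 (4.72 CPM) and Spink4 (4.33 CPM). The mucin Muc2, also among the 5, stood at 0.0480 CPM in beta barcodes and at 0 in the other classes.

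The stretch before the transcription start is where several of these genes receive cAMP and calcium signals, through letters bound by CREB and related factors. RefSeq promoters (GRCm38.p6) were found for 7 of the 10 genes: Fos, Fosb, Jun, Junb, Egr4, Nr4a1 and Dusp1. The 250 bases before the start are shown for the genes whose correlations are compared below, and capitals mark TGACG or its reverse complement CGTCA, the core of the cAMP response element.
Fos (chr12:85473640-85473889, plus strand): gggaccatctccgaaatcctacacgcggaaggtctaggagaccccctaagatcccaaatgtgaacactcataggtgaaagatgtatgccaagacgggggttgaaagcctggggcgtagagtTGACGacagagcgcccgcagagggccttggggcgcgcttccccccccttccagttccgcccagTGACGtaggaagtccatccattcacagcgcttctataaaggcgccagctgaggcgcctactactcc
Dusp1 (chr17:26508473-26508722, minus strand): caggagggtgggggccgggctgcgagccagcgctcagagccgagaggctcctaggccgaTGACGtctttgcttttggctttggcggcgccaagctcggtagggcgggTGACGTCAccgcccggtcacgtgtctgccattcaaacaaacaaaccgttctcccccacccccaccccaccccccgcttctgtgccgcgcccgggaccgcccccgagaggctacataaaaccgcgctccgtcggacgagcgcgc
Jun (chr4:95052223-95052472, minus strand): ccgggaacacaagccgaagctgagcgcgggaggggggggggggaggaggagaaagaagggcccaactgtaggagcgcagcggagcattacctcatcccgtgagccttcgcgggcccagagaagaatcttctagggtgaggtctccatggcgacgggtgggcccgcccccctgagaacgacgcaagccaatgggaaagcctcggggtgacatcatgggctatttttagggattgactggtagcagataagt
Fosb (chr7:19310046-19310295, minus strand): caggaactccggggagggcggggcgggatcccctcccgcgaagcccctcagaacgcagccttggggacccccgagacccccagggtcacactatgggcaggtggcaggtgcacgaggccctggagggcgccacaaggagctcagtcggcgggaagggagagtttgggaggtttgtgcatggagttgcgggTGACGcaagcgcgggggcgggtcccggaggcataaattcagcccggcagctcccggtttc
Nr4a1 (chr15:101266596-101266845, plus strand): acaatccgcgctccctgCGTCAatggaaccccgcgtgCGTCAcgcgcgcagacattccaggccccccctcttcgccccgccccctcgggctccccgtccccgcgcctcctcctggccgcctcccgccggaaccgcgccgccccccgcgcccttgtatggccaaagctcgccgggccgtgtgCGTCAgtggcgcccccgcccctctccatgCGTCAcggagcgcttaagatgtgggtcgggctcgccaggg
Egr4 (chr6:85513590-85513839, minus strand): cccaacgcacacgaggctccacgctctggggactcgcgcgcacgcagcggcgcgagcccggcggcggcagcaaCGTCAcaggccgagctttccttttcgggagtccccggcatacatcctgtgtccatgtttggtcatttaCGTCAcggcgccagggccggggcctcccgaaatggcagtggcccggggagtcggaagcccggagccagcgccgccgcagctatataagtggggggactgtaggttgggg
These letters were found in 6 of the 7 promoters, with 4 matches in Nr4a1, 3 in Dusp1, 2 each in Fos and Egr4, 1 each in Fosb and Junb, and 0 in Jun. Over all 32851 RefSeq promoters of the same length, 17.8% held them. The full element TGACGTCA, which reads the same on both strands and holds TGACG on each, was found in Dusp1, 143 bases before the start, and in 1.55% of all promoters. The AP-1 letters TGANTCA, searched on both strands, were in 0 of the 7 windows and in 6.75% of all promoters, and the CArG box, the site of serum response factor, was in 0 and in 1.47%. TATAAA or its reverse complement was found in Fos, 33 bases before the start, and in 12.4% of all promoters. A match is a description of the letters and not a bound site, and a window without one says only that they are not within these bases.

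Of the AP-1 subunits, Fos, Fosb and Jun were highest in beta barcodes and Junb was not. Levels are the UMIs of a gene summed over a class, as CPM, with exact 95% Poisson intervals, which cover counting error only. Fosb, a Fos-family subunit, stood at 744 CPM (738 to 750) in beta barcodes, 199 CPM (190 to 209) in alpha, 485 CPM (453 to 519) in delta, 219 CPM (201 to 238) in PP and 731 CPM (713 to 748) in the none class. It was therefore as high in the mixed none class as in beta barcodes, within counting error, and lowest in alpha and PP barcodes, whose intervals overlapped. Fos, the founding member of its family, stood at 417 CPM (413 to 421) in beta, 116 CPM (109 to 124) in alpha, 142 CPM (125 to 161) in delta, 61.0 CPM (51.8 to 71.4) in PP and 178 CPM (170 to 187) in none. Jun, the main partner of Fos, differed less between classes, at 578 CPM (573 to 583) in beta, 379 CPM (366 to 393) in alpha, 486 CPM (453 to 520) in delta, 313 CPM (292 to 336) in PP and 361 CPM (349 to 374) in none. Junb, a Jun-family subunit, did not follow that order: it stood at 299 CPM (295 to 303) in beta and 301 CPM (289 to 313) in alpha, which overlap, at 396 CPM (367 to 427) in delta, 264 CPM (245 to 285) in PP and 574 CPM (559 to 590) in none.

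Egr1, a zinc finger factor induced with Fos in many cell types, stood at 349 CPM (345 to 353) in beta, 101 CPM (93.7 to 108) in alpha, 178 CPM (158 to 199) in delta, 74.0 CPM (63.8 to 85.4) in PP and 224 CPM (215 to 234) in none. Its relative Egr4 was rare everywhere, at 14.5 CPM (13.7 to 15.4) in beta, 3.68 CPM (2.47 to 5.29) in alpha, 8.13 CPM (4.44 to 13.6) in delta, 4.33 CPM (2.16 to 7.75) in PP and 7.34 CPM (5.70 to 9.30) in none. The alpha, delta and PP intervals of Egr4 overlapped, since they rest on 29, 14 and 11 UMIs.

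Nr4a1, a receptor without a known ligand that is induced by depolarisation, stood at 77.9 CPM (76.0 to 79.8) in beta, 27.1 CPM (23.5 to 30.9) in alpha, 38.9 CPM (30.1 to 49.4) in delta, 15 CPM (10.6 to 20.5) in PP and 92.2 CPM (86.2 to 98.6) in none. Arc, best known from synapses, stood at 56.3 CPM (54.7 to 58.0) in beta, 12.2 CPM (9.88 to 14.9) in alpha, 23.2 CPM (16.6 to 31.6) in delta, 16.9 CPM (12.2 to 22.8) in PP and 37.9 CPM (34.0 to 42.0) in none. Both were higher in beta barcodes than in each of the other hormone classes.

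Ier2 was highest in the none class and in delta barcodes, at 158 CPM (150 to 166) and 153 CPM (135 to 172), against 115 CPM (112 to 117) in beta, 76.8 CPM (70.8 to 83.2) in alpha and 57.5 CPM (48.5 to 67.6) in PP. Dusp1 stood at 112 CPM (110 to 115) in beta, 65.7 CPM (60.1 to 71.6) in alpha, 73.1 CPM (60.9 to 87.1) in delta, 32.7 CPM (26.0 to 40.5) in PP and 184 CPM (175 to 193) in none. On the CPM scale, 6 of the 10 genes were highest in beta barcodes and 4 (Junb, Nr4a1, Ier2 and Dusp1) in the none class.

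**Figure D1:**
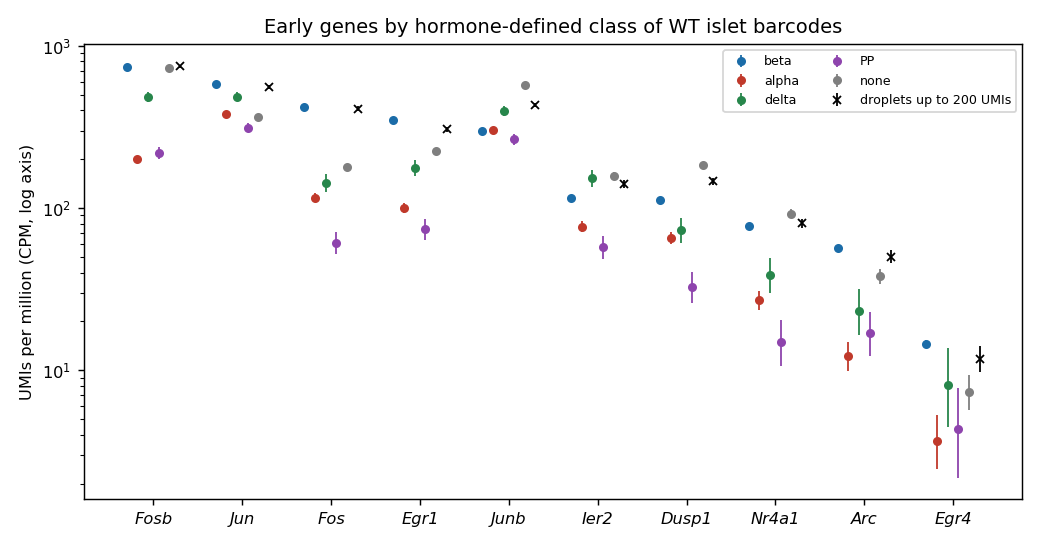
Level in CPM (log axis) of the 10 early genes in 5 classes of WT barcodes and in droplets of at most 200 UMIs; points are summed levels and bars exact 95% Poisson intervals. Fosb, Fos, Egr1 and Arc lie lowest in alpha or PP barcodes, while Junb (299 CPM in beta, 574 CPM in none) and Dusp1 (112 and 184 CPM) are highest in the none class.

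Free RNA in droplets of at most 200 UMIs carried these transcripts, with Fosb at 747 CPM, Fos at 409 CPM and Nr4a1 at 80.3 CPM, close to beta barcodes. Junb (432 CPM), Dusp1 (146 CPM) and Ier2 (140 CPM) were higher in droplets than in beta barcodes (299, 112 and 115 CPM). Jun (555 CPM), Egr1 (305 CPM) and Arc (50.1 CPM) were lower in droplets than in beta barcodes. Egr4 stood at 11.8 CPM (9.74 to 14.1) in droplets, which overlaps its interval in beta barcodes (13.7 to 15.4). If all insulin UMIs of a class came from such RNA, it would account for 13.4% (Junb) to 38.3% (Arc) of the level in alpha barcodes and for 13.7% (Ier2) to 43.0% (Fos) in delta barcodes. In PP barcodes the same reckoning gave 99.2% for Fos, 79.3% for Nr4a1 and 66.1% for Dusp1, so the Fos level of PP barcodes is not read as expression. It gave 103% for Fos in the none class, where insulin UMIs also come from barcodes just under the insulin limit. The share was not taken off any ratio.

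Beta barcodes held most of these RNAs at a higher level than alpha barcodes once both were set against the median gene. Insulin fills 51.2% of the UMIs in beta barcodes, so the median of the 4558 genes with at least 20 CPM in either class lay at log2 -0.45 for beta over alpha, and ratios are given relative to it. Of the 9 genes that passed this floor (all but Egr4), 8 were more than 1.5-fold above the median gene and 0 more than 1.5-fold below it, where 16.0% and 14.8% of all genes were. Their median was log2 1.94, against 0 for all genes by construction. Because the genes were picked with such values known, nothing is read from that count. Arc was highest at log2 2.65 (2.36 to 2.96), followed by Fosb at 2.35 (2.27 to 2.42), Fos at 2.29 (2.20 to 2.39) and Egr1 at 2.24 (2.14 to 2.34), whose intervals partly overlap. Nr4a1 lay at 1.97 (1.77 to 2.18), Dusp1 at 1.22 (1.09 to 1.35), Jun at 1.05 (1.00 to 1.11) and Ier2 at 1.02 (0.90 to 1.14). Junb, at 0.44 (0.37 to 0.50), stayed inside the 1.5-fold band, and Egr4, below the floor, stood at 2.42 (1.89 to 3.01).

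Against delta barcodes, 7 of the 9 genes above the floor were past 1.5-fold above the median gene, where 14.8% of all 5520 genes were, and 0 as far below (14.4%). Fos led at log2 2.41 (2.23 to 2.60) and Arc followed at 2.14 (1.69 to 2.63). Fosb, at 1.48 (1.38 to 1.58) here, stood at 2.35 against alpha barcodes. Junb at 0.46 (0.35 to 0.57) and Ier2 at 0.45 (0.27 to 0.63) stayed inside the band. Against PP barcodes 8 of 9 lay above it (14.5% of 4412 genes) and 0 below (12.9%), the lowest of them Jun at 1.2 (1.1 to 1.3) and Ier2 at 1.32 (1.08 to 1.56), with Junb at 0.49 again inside. No ratio is given there for Fos, whose PP level may be free RNA almost in full, although Fos is among the 8 counted. Against the none class 5 of 9 lay above it (7.25% of 5666 genes) and 0 below (13.2%): Fos at 2.00, Jun at 1.45, Egr1 at 1.42, Arc at 1.35 and Fosb at 0.80. The reckoning of free RNA in the none class gave 103% for Fos, 68.6% for Jun, 60.9% for Egr1, 59.1% for Arc and 45.7% for Fosb. The Fos level of that class may thus be free RNA in full too, and its ratio is given with that limit. Nr4a1, Ier2, Dusp1 and Junb stood at 0.53, 0.32, 0.06 and -0.17 there, so of the 4 genes that were highest in the none class in CPM, Junb alone lay below the median gene.

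Within the beta class the genes differed in how evenly they were spread over cells. To compare cells at equal depth, as many UMIs as the floor for keeping a barcode, about 5600, were drawn at random from each of the 3261 beta barcodes. Fosb was broad: after this thinning 88.2% of beta barcodes (87.1 to 89.3, exact binomial interval) held at least 1 UMI, with a median of 3, a 90th percentile of 10 and a maximum of 32. Fos was held by 46.7% (45 to 48.5), with a median of 0, a 90th percentile of 6 and a maximum of 37, and Jun by 67.3% (65.7 to 68.9), with a median of 1 and a maximum of 35. In PP barcodes, where Fos is at the level of free RNA, 25.6% (18 to 34.5) held a Fos UMI after thinning. Before thinning, Fos was seen in 73.7% of beta and 57.3% of PP barcodes, at median depths of 23415 and 21063 UMIs.

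Most Fos RNA lay in few cells. All 10 genes together gave a median of 8 UMIs per thinned beta barcode, and 53 barcodes (1.63%) held none of them. Counted at full depth, without thinning, the 327 of 3261 beta barcodes that were highest for Fos held 58.0% of all its UMIs. The same share was 57.9% for Dusp1, 57.0% for Arc and 56.8% for Ier2, against 30.2% for Fosb. Jun, Junb, Egr1 and Nr4a1 lay between, at 45.3%, 47.1%, 44.7% and 47.6%. Differences in total UMIs between barcodes enter these shares. Few UMIs per barcode can raise them too. The median at full depth was 0 for Arc, 1 for Dusp1 and Ier2, 2 for Fos and 13 for Fosb. For Egr4 the share was 94.5%, which its sparsity alone sets close to the top, since 12.1% of beta barcodes held any Egr4 UMI. Its 10 highest barcodes alone held 254 of 1209 UMIs (21.0%), where the same share was 1.53% for Fosb and 4.2% for Fos.

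**Figure D2:**
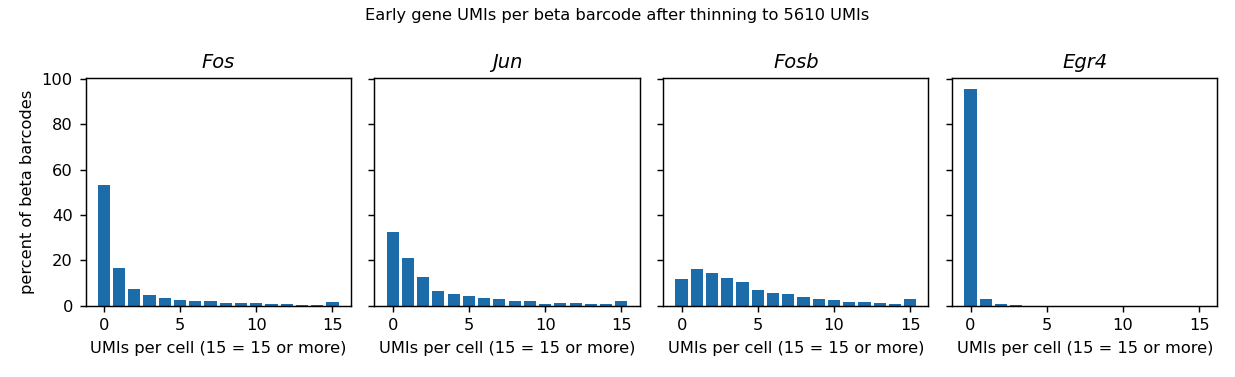
Percent of the 3261 beta barcodes (vertical axis) by the number of UMIs per barcode after thinning to about 5600 UMIs (horizontal axis, 15 stands for 15 or more) for Fos, Jun, Fosb and Egr4. Barcodes at 0 make up 53.3% for Fos, 32.7% for Jun, 11.8% for Fosb and 95.4% for Egr4.

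The spread of each gene was wider than counting alone gives. For counts that differ between cells by sampling only, the variance equals the mean, and at equal depth the variance was 6.87 times the mean for Fos, 5.28 times for Jun, 3.97 times for Fosb and 3.89 times for Egr1. Arc (1.82) and Nr4a1 (1.99) were closest to sampling. The part of the variance beyond sampling was a share of 0.850 for Fos, 0.813 for Jun, 0.758 for Fosb, 0.620 for Egr4, 0.474 for Arc and 0.464 for Nr4a1. A correlation between 2 sparse genes is therefore lowered by counting noise, and by more for Arc and Nr4a1 than for Fos and Jun.

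All 45 pairs of the 10 genes were positively correlated over beta barcodes at equal depth, with Spearman rho from 0.0674 (Egr4 with Dusp1) to 0.629 (Jun with Egr1) and a median of 0.280. The points are cells of 1 library, so they share its preparation. Fos and Jun, the classical AP-1 partners, had a rho of 0.618, Fos and Egr1 0.594, Fos and Ier2 0.453, Fos and Dusp1 0.449, and Fos and Junb 0.439. Fos and Fosb, of the same protein family, had a rho of 0.270 only, below that of Fosb with Egr1 (0.422), Jun (0.369) and Nr4a1 (0.337). A rho of at least 0.2 with Fos was reached by 33 of 3991 genes with at least 0.1 thinned UMIs per cell (0.827%), of which 8 were others of the 10. For Fosb the same limit was reached by 47 genes (1.18%), of which 7 were others of the 10, with Dusp1 at 0.153 below it. Egr4, at a mean of 0.0764 thinned UMIs, was under the floor and so was not among the genes counted for any member. Its rho with Fosb was 0.156. The limit was passed by 0.852% of genes for Jun, 0.802% for Egr1 and 0.601% for Junb, each with 8 of the 10 among them. It was passed by 0.476% for Ier2 (7 of the 10), 0.426% for Arc (7), 0.426% for Dusp1 (5), 0.301% for Nr4a1 (6) and 0.00% for Egr4 (0). The genes were picked with such values known, so these shares are given beside the counts and nothing is read from them.

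Correlations with the sampling variance taken off (noise-corrected r: the covariance over the square root of the product of the 2 variances in excess of sampling, as a mean over 10 random draws) ranged from 0.149 to 0.856, with a median of 0.495. They set out a tight block of 6 genes: Jun with Egr1 at 0.856 (0.830 to 0.878, lowest and highest draw), Fos with Jun at 0.794 (0.771 to 0.813), Fos with Dusp1 at 0.792 (0.765 to 0.824), Junb with Egr1 at 0.771 (0.751 to 0.792), Fos with Ier2 at 0.739 (0.684 to 0.775) and Ier2 with Dusp1 at 0.612 (0.537 to 0.649). Fosb with Nr4a1 reached 0.671 (0.619 to 0.715), Fosb with Arc 0.576 (0.527 to 0.612) and Nr4a1 with Arc 0.569 (0.520 to 0.631). Fos stood lower with each of these 3 genes, at 0.291 (0.275 to 0.322) with Fosb, 0.366 (0.328 to 0.414) with Nr4a1 and 0.418 (0.367 to 0.473) with Arc. The ranges of draws show the error of the drawing alone.

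**Figure D3:**
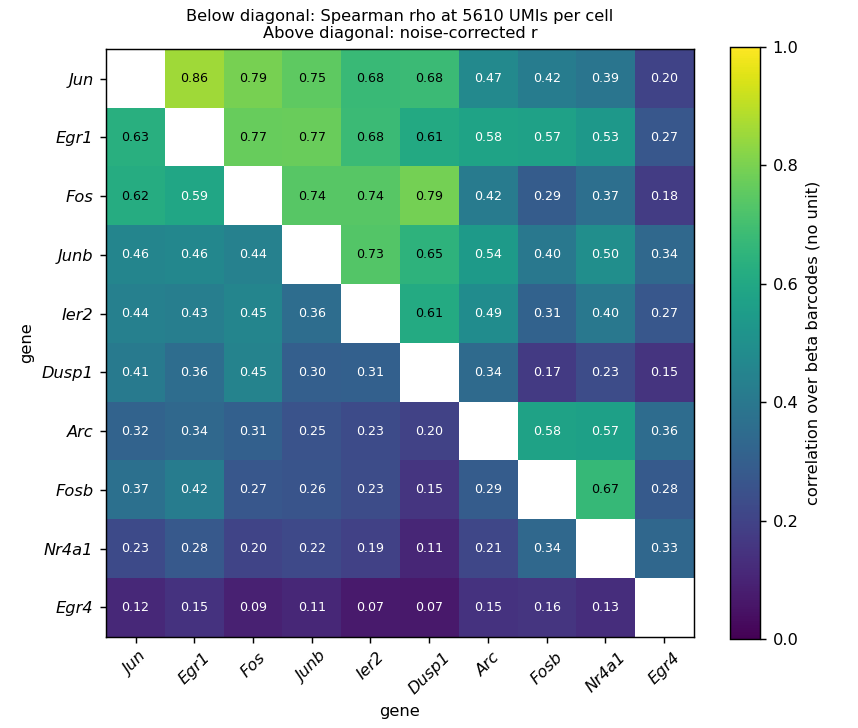
Correlation (colour, no unit) of each pair of the 10 genes over 3261 beta barcodes, with Spearman rho at about 5600 UMIs per cell below the diagonal and noise-corrected r above it. Jun, Egr1, Fos, Junb, Ier2 and Dusp1 form a block in the upper left, Fosb, Nr4a1 and Arc a looser one with 0.671 between Fosb and Nr4a1, and Egr4 is low with all.

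Of a split into Fosb, Arc and Nr4a1 on one side and Fos, Jun and Egr4 on the other, Fosb and Nr4a1 stood apart from Fos and Jun over all beta barcodes in noise-corrected values, Arc did so less clearly, and Egr4 was low with both sides. Over rank correlations the mean within the first group was 0.280 and within the second 0.276, against 0.236 between the groups, a difference of 0.0412. Noise-corrected, the means were 0.606 within Fosb, Arc and Nr4a1, 0.390 within Fos, Jun and Egr4, and 0.369 between, a difference of 0.129. Noise-corrected values rest on UMI counts and not on ranks, so these differences are not like for like. Without Egr4 the difference of the rank correlations was 0.0817. Egr4 stood at 0.176 (0.144 to 0.205) with Fos and 0.20 (0.140 to 0.242) with Jun, and at 0.282 (0.254 to 0.325) with Fosb, 0.332 (0.275 to 0.417) with Nr4a1 and 0.355 (0.269 to 0.419) with Arc. Its rho was 0.0934 and 0.115 with Fos and Jun against 0.156, 0.129 and 0.148 with Fosb, Nr4a1 and Arc. With the rest of the block of Fos, Egr4 had a noise-corrected r of 0.339 with Junb, 0.270 with Egr1, 0.270 with Ier2 and 0.149 with Dusp1. Its rho with these genes was 0.112, 0.147, 0.0724 and 0.0674. These values overlap in part with those for Fosb, Nr4a1 and Arc, so Egr4 is placed with neither side. In sparse counts such weak correlations are no finding, and Egr4 had 0 UMIs in 95.4% of thinned beta barcodes.

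**Figure D4:**
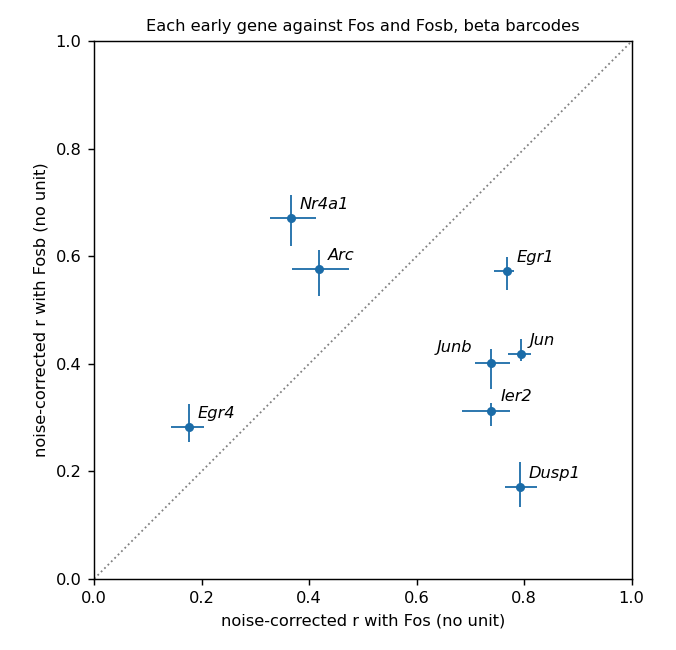
Noise-corrected r with Fos (horizontal axis, no unit) and with Fosb (vertical axis, no unit) for the other 8 genes over 3261 beta barcodes; points are means and bars the lowest and highest of 10 random draws, and the dotted line marks equal values. Nr4a1 (0.366 and 0.671), Arc (0.418 and 0.576) and Egr4 (0.176 and 0.282) lie above the line, and Jun, Egr1, Junb, Ier2 and Dusp1 (0.792 and 0.170) below it.

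Hierarchical clustering of the 10 genes gave groups that depended on the linkage. With complete linkage, 2 groups were Fos, Jun, Junb, Egr1, Ier2 and Dusp1 against Fosb, Arc, Nr4a1 and Egr4, for rank correlations and for noise-corrected ones. With average linkage, Egr4 split off first, and at 3 groups Fosb and Nr4a1 stood apart from the block of Fos, joined by Arc for noise-corrected values, while Arc joined the block of Fos for rank correlations. Arc therefore lay between: its noise-corrected r was 0.576 with Fosb and 0.580 with Egr1. Egr1 in turn correlated with both sides, at 0.572 with Fosb and 0.532 with Nr4a1.

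Cells at the top of both distributions were more often shared by Fos and Jun than by Fos and Fosb. Of the 377 beta barcodes with at least 6 thinned Fos UMIs, 197 (52.3%, 47.1 to 57.4) also had at least 8 Jun UMIs, against 11.2% of all beta barcodes. At least 10 Fosb UMIs were found in 78 of the 377 (20.7%, 16.7 to 25.1), against 10.9% of all. Of the 357 barcodes rich in Fosb, 105 had 0 Fos UMIs, a smaller share than the 53.3% of all beta barcodes. Of the 377 rich in Fos, 15 had 0 Fosb UMIs, a smaller share than the 11.8% of all. On the other side of the split, at least 1 Nr4a1 UMI was found in 58.0% (52.7 to 63.2) of the 357, against 26.3% of all beta barcodes, and at least 1 Arc UMI in 44.5% (39.3 to 49.9), against 19.1%. These limits of 1 UMI are lower than those for Fos, Jun and Fosb, so the shares are not set against theirs.

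Cells sorted by Fos alone show how far each of the other genes moved with it. From the 1737 beta barcodes with 0 thinned Fos UMIs to the 164 with 10 or more, mean Ier2 went from 0.193 to 2.79 UMIs (14.4 times), Dusp1 from 0.195 to 2.40 (12.3 times), Jun from 1.04 to 10.1 (9.73 times) and Egr1 from 0.579 to 5.62 (9.71 times). Fosb went from 3.33 to 6.63 UMIs (1.99 times), the smallest ratio of the 9, from the highest starting mean. Counted in UMIs, Fosb rose by more than Ier2 or Dusp1. Arc moved 7.41 times, Junb 7.18 times, Egr4 5.15 times and Nr4a1 3.80 times. Total UMIs and the mitochondrial share of the cell moved too, from a median of 21575 to 31386 UMIs and from 3.42% to 2.25%, while the median insulin share was 49.9% and 51.2%.

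**Figure D5:**
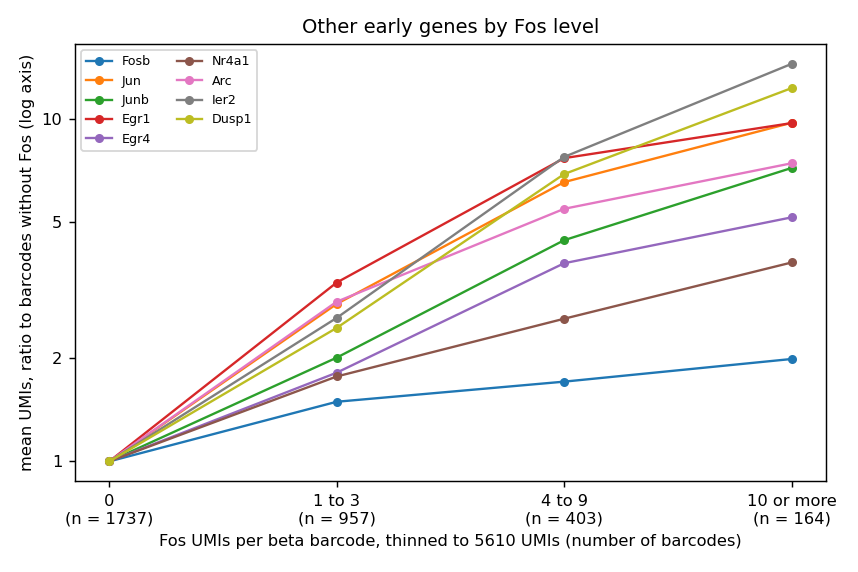
Mean UMIs of 9 early genes after thinning to about 5600 UMIs, as a ratio to beta barcodes without Fos (vertical log axis), in 4 classes of Fos UMIs per barcode (horizontal axis, with the number of barcodes). Ier2 reaches 14.4 times in the 164 barcodes with 10 or more Fos UMIs, and Fosb 1.99 times.

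Fos and Fosb also differed in the cell properties they tracked. At equal drawn depth Fos had a rho of 0.410 with the cell's own total UMIs, Jun 0.366, Egr1 0.343 and Dusp1 0.263, against 0.0139 for Fosb and 0.0707 for Nr4a1. With the insulin share Fosb had -0.342 and Fos 0.111, and with the mitochondrial share Fosb had 0.135 and Fos -0.267. Insulin and mitochondrial UMIs are part of the same drawn total as each gene. Within 3 equal bins of total UMIs (1087 barcodes each, from 5665 UMIs up to 88243) mean Fos was 0.782, 1.24 and 3.71 thinned UMIs and mean Fosb 4.22, 4.51 and 4.08. The rho of Fos with Jun was 0.314, 0.509 and 0.661 in these bins, highest among the largest cells, and that of Fosb with Nr4a1 was 0.372, 0.362 and 0.268. Fos with Fosb had 0.215, 0.373 and 0.291, in the bins of middle and largest cells no lower than Fosb with Nr4a1. Counting noise lowers rho more for Nr4a1 than for Fos, so that comparison is not like for like. Fos with Fosb was below Fos with Jun in each bin. Fos with Nr4a1 had 0.184, 0.264 and 0.159, below Fosb with Nr4a1 in each bin. The difference within minus between the proposed groups was 0.0299, 0.0194 and 0.0281 inside the bins, below the 0.0412 of all beta barcodes. Doublets were not called, and their part in the large cells was not tested.

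The insulin limit of the beta class bears on Fosb and Fos in opposite directions. Just inside it, 192 barcodes with 30 to 35% insulin held Fosb at 1134 CPM and Fos at 247 CPM. Just outside it, 109 barcodes with 25 to 30% insulin that met no other rule held 1148 and 136 CPM. The 3069 barcodes of 35% or more held 723 and 426 CPM.

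Rank correlations between these genes were lower in alpha barcodes, where counts are also lower. At equal depth the 45 pairs had a median rho of 0.0712 over 471 alpha barcodes, 0.0948 over 149 delta, 0.0524 over 117 PP and 0.210 over 549 none barcodes, against 0.280 over beta barcodes. The 5 most abundant genes (Fos, Fosb, Jun, Junb and Egr1) allow the noise-corrected value, whose median over 10 pairs was 0.418 in alpha, 0.436 in none and 0.746 in beta barcodes. Fos with Jun stood at 0.329 (0.220 to 0.416 over draws) in alpha against 0.794 in beta barcodes, and Fos with Junb at 0.189 (0.119 to 0.295) against 0.739. Other pairs were close to their beta values, with wide draws: Fos with Egr1 at 0.700 (0.478 to 1.02) against 0.769, Fosb with Egr1 at 0.528 (0.269 to 0.771) against 0.572, and Fos with Fosb at 0.322 (0.171 to 0.455) against 0.291. In the none class the highest rho was that of Junb with Dusp1 (0.592), followed by Junb with Ier2 (0.522), while Fosb with Junb had -0.0925. That class mixes cell types, and the differences between classes were not tested.

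The genes outside the 10 whose levels followed them most closely over beta barcodes were few and recurrent. C2cd4b, Hspa1a, which encodes the inducible heat shock protein HSP70, and Btg2, an early-induced antiproliferative gene, were the nearest to Fos (rho 0.517, 0.468 and 0.449), to Jun (0.484, 0.544 and 0.479) and to Egr1 (0.482, 0.521 and 0.475). Hspa1b, the neighbouring HSP70 gene, Dnajb1, its co-chaperone, and Hspa1a were nearest to Fosb (0.517, 0.495 and 0.478) and, in another order, to Nr4a1 (0.254, 0.277 and 0.269). Hspa1a and Hspa1b are near-identical copies, so how reads were split between them is uncertain. Arc was nearest to Hspa1a (0.275), Btg2 (0.256) and Dnajb1 (0.255), and Egr4 reached 0.144 at most, with Dnajb1. Junb was nearest to Nfkbia, the inhibitor of NF-kB (0.398), C2cd4b (0.386) and Btg2 (0.368). Ier2 and Dusp1 shared C2cd4b (0.371 and 0.352), Btg2 (0.336 and 0.305) and Hspa1a (0.316 and 0.288). The median over all genes was -0.0172 with Fos and 0.0294 with Fosb.

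The summed UMIs of Fos, Jun and Egr4 and those of Fosb, Arc and Nr4a1 had a rho of 0.416 with each other. The sums are unweighted, so the second is mostly Fosb (mean 4.27 thinned UMIs, against 0.285 for Arc and 0.429 for Nr4a1). Egr4 (0.0764) adds little to the first beside Fos (1.91) and Jun (2.79). The genes named next are the 5 at either end of the difference between the correlations with the 2 sums. Ins2 had 0.0613 with the first sum and -0.310 with the second, Ins1 0.00841 and -0.275, C2cd4b 0.527 and 0.260, Chga, a granule protein, 0.260 and 0.0373, and Ubb, a ubiquitin gene, 0.298 and 0.109. On the other side Rpl41, a ribosomal protein gene, had -0.254 and 0.0991, mt-Co1 -0.192 and 0.143, mt-Co3 -0.228 and 0.0898, mt-Nd1 -0.271 and 0.0466, and mt-Co2 -0.194 and 0.112. Insulin takes a large part of each thinned cell, so a gene's thinned count and the insulin count share 1 total.

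Other early genes were less uniform. Of 48 listed, all were in the gene list and 27 had at least 0.1 thinned UMIs per beta barcode. A rho of at least 0.2 with Fos was found for 6 of them (Btg2, Nfkbia, Npas4, Klf6, Zfp36 and Rhob) and with Fosb for 7 (Nfkbia, Rhob, Btg2, Klf6, Atf3, Btg1 and Dusp5). Over all genes above that floor the shares were 0.827% and 1.18%. The medians of the listed early genes were 0.0826 and 0.112, against -0.017 and 0.029 over all genes. Jund, the most abundant of them at 1277 CPM in beta barcodes and a Jun-family gene that is known for its steady expression, had -0.168 with Fos and 0.140 with Fosb. The next by level were Nfkbia at 386 CPM (0.342 with Fos and 0.347 with Fosb), Btg1 at 299 CPM (-0.0384 and 0.212), Gadd45g, a growth arrest gene, at 190 CPM (0.193 and 0.120) and Btg2 at 177 CPM (0.449 and 0.301). Npas4, an activity-dependent factor, had 0.276 with Fos and 0.199 with Fosb.

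Set against alpha barcodes, 30 of the 48 passed the 20 CPM floor, of which 10 were past 1.5-fold above the median gene and 7 below (16.0% and 14.8% of all genes), with a median of log2 0.29. Btg1 (log2 1.76), Klf2 (1.68) and Per1 (1.61) were highest. Of 15 heat shock and stress genes, 7 were as far above the median gene and 0 as far below, with a median of 0.56. Over beta barcodes 6 of them had a rho of at least 0.2 with Fos and 9 with Fosb, where 0.827% and 1.18% of all genes did. The 3 that passed with Fosb alone were Hsph1 (0.0285 with Fos and 0.235 with Fosb), Ddit3 (0.0786 and 0.320), a factor of the unfolded protein response, and Atf4 (0.0556 and 0.213), its upstream activator. Txnip, which responds to glucose, had 0.404 with Fos and 0.254 with Fosb.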

How the data were processed

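Each library was deposited as 1 matrix of 737280 barcodes by 27998 genes, whose values are whole-number UMI counts with no normalisation, per the file headers. Libraries were made with 10x Genomics single-cell 3′ v2 chemistry, per the labels' protocols. FastQC, Trimmomatic and the build mm10 are named, per the submitters' processing notes; aligner, counter and gene models: not given in the sources used here. For this work, the WT matrix was read whole (23027935 entries, 118523180 UMIs, 88.3% of them in the 4547 barcodes kept). Jun, Junb and Dusp1 overlap genes on the other strand in GENCODE M21, and the strand setting of the counting is not given, so their UMIs may hold a share of those genes. Dusp1 also overlaps AC122252.4 and AC122252.1 on its own strand, neither of them in the deposited list, which a strand setting cannot separate.

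Members and gene lists were chosen with earlier results of these data known. Further genes were named by rule: for each member the 3 genes with the highest rho, the 5 genes at either end of the difference between the 2 sums, and the 5 most abundant other early genes; others named were picked after their values were seen. UMIs were drawn without replacement with fixed seeds. The median of a gene list uses CPM plus 1, single genes the plain ratio with an exact conditional binomial interval. Python 3.11.15, numpy 2.4.6, scipy 1.17.1 and pandas 2.3.3 were used, and the ratios and the noise correction were tested on simulated data. With 1 library no replicate error and no test are available. The noise correction and the bins of total UMIs were added after the data were seen.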

Additional observations from a re-analysis of the deposited data

How the results depend on the processing

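No paired analysis was possible because each group has 1 library. The median of the early genes for beta over alpha barcodes (log2 1.94) lay between 1.77 and 2.06 under 6 alternatives (another UMI total, barcodes with 1 hormone rule only, a floor of 10000 UMIs, equal weight per cell, and CPM floors of 0 or 50), and none of 60 single-gene values changed sign. The median gene itself moved from log2 -0.45 to 0.40 with a total that leaves hormone and mitochondrial UMIs aside. The mean rho over all pairs (0.292) was 0.338 with thinning to 10000 UMIs, 0.477 with no thinning, 0.253 as a partial correlation given insulin share, mitochondrial share and total UMIs, and 0.506 with noise correction of 1 draw. The difference within minus between the proposed groups (0.0412) lay between 0.0176 (no thinning) and 0.0500 (Pearson of log2 UMIs plus 1) under 9 alternatives. With noise correction, which takes UMI counts and not ranks, it was 0.131. The mean correlation of Egr4 with Fos and Jun was below that with Fosb, Arc and Nr4a1 under all 10 alternatives (difference from -0.133 to -0.0245). Egr4 had 0 UMIs in 95.4% of thinned beta barcodes, and before thinning 12.1% of beta barcodes held any.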
